A study of Mus musculus with 18 samples.

Results

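Aminoacyl-tRNA synthetases attach each amino acid to its tRNAs, the step that fixes the genetic code in the cytosol and, with a separate set of enzymes, in mitochondria. Both sets are encoded in the nucleus, and the mitochondrial enzymes are imported after translation in the cytosol. They act on tRNAs whose 3′ ends have been trimmed by ELAC2, the RNase Z that removes the 3′ trailer of nuclear and mitochondrial tRNA precursors before the CCA end is added and charged. The 36 genes described here were chosen by symbol from the tables of normalised counts, and all 36 were found among the 55469 genes listed. Symbols ending in 2 were counted as mitochondrial (16 genes) and the other 20 as cytosolic. Gars and Kars were counted as cytosolic although each encodes the enzyme of both compartments.

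RNA of the ventral and lateral lobes of the prostate was sequenced in male mice on a C56NL/6N background, with 3 libraries in each of 6 groups and 18 libraries in all. WT mice (ELAC2+/+) were compared at 10 and 30 weeks of age with KO mice, in which Cre driven by the prostate epithelial Pb promoter removed exon 8 of Elac2, and with A537T mice, which were homozygous for threonine in place of alanine at that residue of ELAC2 in every tissue. The WT libraries of an age served both mutant lines, so the comparisons within an age share their controls. The deletion was limited to cells that express Pb, whereas stroma, blood vessels and immune cells in the same lobes kept Elac2, and in such bulk RNA fewer cells of a type and less RNA per cell cannot be told apart. TRAMP lines were not analysed here.

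Libraries held 6569642 to 11225281 reads as estimated by the authors, with a median of 8586877. Elac2 itself, read over the whole transcript and not over exon 8, had normalised counts of 124, 142 and 166 in WT and 119, 111 and 115 in KO at 10 weeks, and 150, 153 and 194 in WT and 98.4, 151 and 122 in KO at 30 weeks. The KO libraries at 10 weeks lay below every WT library, but the difference did not pass the test at either age (limma adjusted p = 0.325 at 10 weeks and 0.478 at 30 weeks). The libraries differed in the tissue they held. The share of reads from 20 skeletal muscle genes was 1.88 to 6.53% in WT and 0.0323 to 1.03% in KO at 10 weeks, and that of 8 seminal vesicle genes was 0.000808 to 4.64% in WT and 6.55 to 10.3% in KO. At 30 weeks libraries 4AF and 6AF (KO) and 7AF and 9AF (A537T) held 6.32 to 9.17% of seminal vesicle reads, and the other 5 libraries of that age at most 0.000335%. Genes of prostate secretory epithelium took 3.64 to 13.3% of reads in WT and 0.411 to 3.80% in KO at 10 weeks. At 30 weeks they took 7.52 to 14.7% in WT, 4.79 to 14.2% in KO and 4.45 to 14.7% in A537T. Of these genes 7 of 7 were lower in both lines at 30 weeks (median log2 fold change -0.53 in KO and -0.76 in A537T). Adipocyte genes were higher at that age, 7 of 7 in both lines (medians 2.02 in KO and 1.24 in A537T). In KO at 10 weeks 7 of 7 adipocyte genes were lower (0.0470 to 0.0719% of reads in WT, 0.0254 to 0.0596% in KO) and 6 of 7 smooth muscle genes higher (0.157 to 0.499% and 0.401 to 0.539%). The part of this tissue content in the differences below was not tested, also where a value with a tissue score is given.

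The cytosolic enzymes were the more abundant set. Levels are given as RPKM, read counts scaled to transcript length and library depth, which allows genes to be compared. The median cytosolic gene stood at 20.4 RPKM and the median mitochondrial gene at 3.63 RPKM over the 18 libraries. Every cytosolic gene, from Cars at 10.7 RPKM upwards, had a median above those of 15 of the 16 mitochondrial genes, among which Tars2 (8.08 to 15.8 RPKM over the libraries) and Cars2 (7.04 to 12.4 RPKM) were highest at 10.2 RPKM each. The exception was Lars2, the mitochondrial leucyl enzyme, with a median of 51.7 RPKM. Apart from Lars2 the classes were separated by a narrow margin, which rests on the transcript chosen for each gene's length. That length was 3222 bases for Cars, whose exons together span 6583, and 1868 for Rars2, whose exons span 2771. The order of genes near the margin could differ with another choice of length. The ratio of the cytosolic to the mitochondrial median within a library ran from 4.37 in library 9AF (A537T, 30 weeks) to 6.08 in library 14AF (KO, 10 weeks), so the order of the classes was the same in all 18 libraries.

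**Figure D1:**
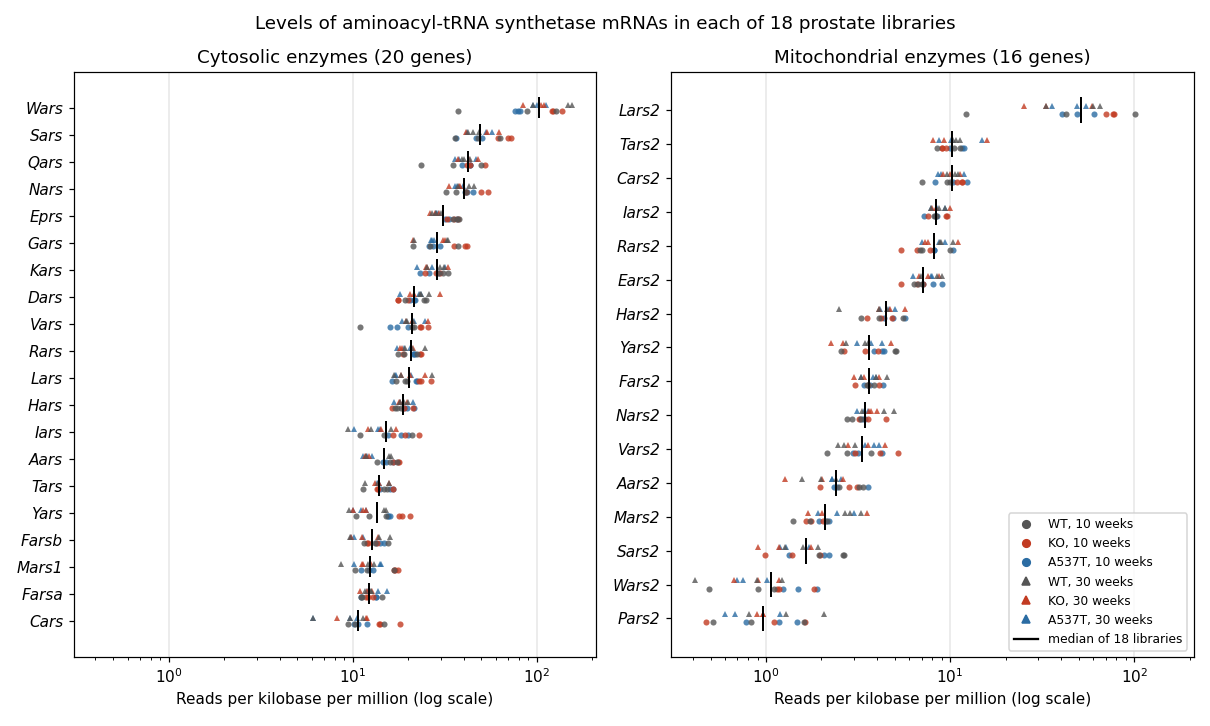
Level of each of the 20 cytosolic and 16 mitochondrial synthetase mRNAs, in RPKM on a log axis, with 1 point per library coloured by genotype (circles, 10 weeks; triangles, 30 weeks) and a black line at the median of 18 libraries. Wars (103) leads the cytosolic genes and Lars2 (51.7) stands apart from the other mitochondrial genes, which have medians of 0.967 to 10.2.

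Wars, the tryptophanyl enzyme and a known interferon-gamma target (chr12:108860030-108894174, minus strand, GRCm38), was the most abundant member at a median of 103 RPKM and supplied 9.34 to 25.8% of the summed cytosolic level. It was followed by Sars (seryl) at 49.4 RPKM, Qars (glutaminyl) at 42.1 RPKM and Nars (asparaginyl) at 40.4 RPKM. These neighbours overlapped over the libraries, with 36.1 to 72.4 RPKM for Sars, 23.4 to 51.9 RPKM for Qars and 31.9 to 54.5 RPKM for Nars. Wars ran from 37.4 RPKM in library 12AF (WT, 10 weeks) to 156 RPKM in 2AF (WT, 30 weeks), a range that also overlapped that of Sars. At the low end were Sars2 at 1.65, Wars2 at 1.06 and Pars2 at 0.967 RPKM, and the lowest count of any member in any library was 10 reads. The highest over the lowest library was 1.70-fold for the median cytosolic gene and 2.27-fold for the median mitochondrial gene. Hars varied least, by 1.31-fold.

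Eprs with Ears2 and Pars2, and Farsa and Farsb with Fars2, were not paired because their symbols do not match. For 13 other amino acids a cytosolic and a mitochondrial gene were paired by symbol. The cytosolic gene was higher in all 18 libraries for 10 of these pairs, with a median ratio over the pairs of 4.34. The extremes were tryptophan, where Wars exceeded Wars2 by a median of 104-fold, and leucine, where Lars stood at 0.396 times Lars2. Lars exceeded Lars2 in 1 library, 12AF, where the ratio was 1.58. Cars and Cars2 lay close together (median ratio 1.19, cytosolic gene higher in 12 of 18 libraries), as did Tars and Tars2 (median ratio 1.41, higher in 16 of 18). Iars and Iars2 had a median ratio of 1.76.

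The first question was whether deletion of Elac2 changed the charging enzymes at 10 weeks. No member passed the test, with limma adjusted p of 0.195 to 0.920 for the 36 genes, and neither did any other gene (0% of 15089 tested). DESeq2 on the recovered counts called 0 members (4.74% of all genes) and edgeR 0 members (0% of all genes). At an unadjusted p under 0.05, limma counted 1 member higher (7.97% of all genes) and 4 lower (11.5% of all genes), a total of 5 of 36 against 19.4% of all genes. DESeq2 counted 4 members (18.4% of all genes) and edgeR 5 (18.6% of all genes) at that level. The groups did not overlap for 11 members (26% of all genes), of which 3 were higher in KO (11.7% of all genes) and 8 were lower (14.3% of all genes).

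The 2 classes lay on opposite sides of 0 in this comparison. Among the cytosolic genes 11 of 20 were higher in KO, their log2 fold changes having a median of 0.16, and among the mitochondrial genes 5 of 16 were higher, with a median of -0.19. The median over all 15089 genes was -0.01 and 49.4% of them were higher. In the libraries themselves the cytosolic minus the mitochondrial median, both taken as log2 distances from the WT mean, was 0.08, -0.14 and -0.05 in WT and 0.15, 0.43 and 0.27 in KO. The 3 KO libraries lay above the 3 WT libraries, with a gap between the nearest pair that was smaller than the spread within either group. No test was made of this class score, since the genes were chosen with results known. Scaling the libraries to the same total moved the median of all genes from -0.01 to 0.20, the cytosolic median to 0.38 and the mitochondrial median to 0.02, so the direction of the mitochondrial median depended on the scaling. The difference of the 2 medians was 0.36, and it was 0.34 with the muscle score as a covariate, 0.19 without library 12AF and 0.23 without library 14AF. Muscle shares did not overlap between WT (1.88 to 6.53%) and KO (0.0323 to 1.03%), so that covariate cannot separate muscle from genotype. No seminal vesicle score was fitted at this age. Without 12AF the cytosolic median itself was 0.03, and it was at most 0.13 with any 1 library left out.

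**Figure D2:**
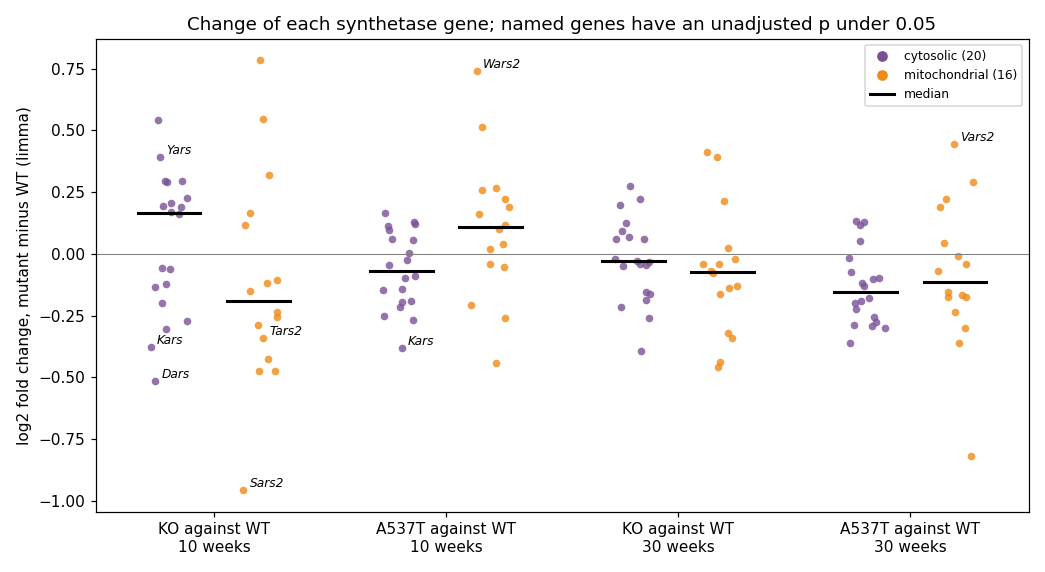
Log2 fold change (mutant minus WT, limma on log2 of normalised count plus 1) of each cytosolic and mitochondrial gene in the 4 comparisons, with black lines at the class medians. The medians are 0.16 and -0.19 in KO at 10 weeks and within 0.16 of 0 in the other 3 comparisons, and genes named have an unadjusted p under 0.05, while none passed an adjusted p of 0.05.

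Sars2, which charges mitochondrial serine tRNAs and lies at chr7:28741992-28753871 (plus strand, GRCm38), had the smallest p of the family. Its normalised counts were 39.1, 42.5 and 37.7 in WT and 13.7, 21.1 and 27.4 in KO at 10 weeks. All 3 KO libraries lay below all 3 WT libraries, at a log2 fold change of -0.96 ± 0.31 (SE, n = 3 against 3; limma adjusted p = 0.195). Tars2, the mitochondrial threonyl enzyme (chr3:95739976-95760206, minus strand), had 203, 232 and 211 in WT and 161, 177 and 172 in KO. Its groups did not overlap either, with a difference of -0.34 ± 0.13 (SE; limma adjusted p = 0.234). Sars2 was counted at few reads, with a median of 25 and a lowest of 13 over the 18 libraries, whereas Tars2 had at least 150 in each.

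Dars (chr1:128363707-128417368, minus strand) and Kars (chr8:111993443-112011323, minus strand), the aspartyl and lysyl enzymes of the multi-synthetase complex, had lower counts in KO at 10 weeks. Dars had normalised counts of 335, 465 and 549 in WT and 324, 313 and 288 in KO, and the fold change was -0.51 ± 0.20 on the log2 scale (SE; limma adjusted p = 0.231). Kars had 494, 600 and 686 in WT and 472, 431 and 454 in KO, a log2 fold change of -0.38 ± 0.15 (SE; limma adjusted p = 0.237). In both genes the KO libraries were tightly grouped and just below the lowest WT library, 10AF. The WT libraries were ordered 10AF, 11AF, 12AF from low to high, as for 27.1% of all genes. Muscle shares (1.88, 3.32 and 6.53%) and prostate secretory shares (3.64, 12.5 and 13.3%) rose in that order, and seminal vesicle shares (4.64, 1.76 and 0.000808%) fell. These shares cannot be told apart here. Yars, the tyrosyl enzyme (chr4:129189760-129219607, plus strand), was the member with the smallest p among those that were higher. It had 353, 302 and 314 normalised counts in WT and 402, 485 and 389 in KO, with no overlap and a log2 fold change of 0.39 ± 0.14 (SE; limma adjusted p = 0.211).

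**Figure D3:**
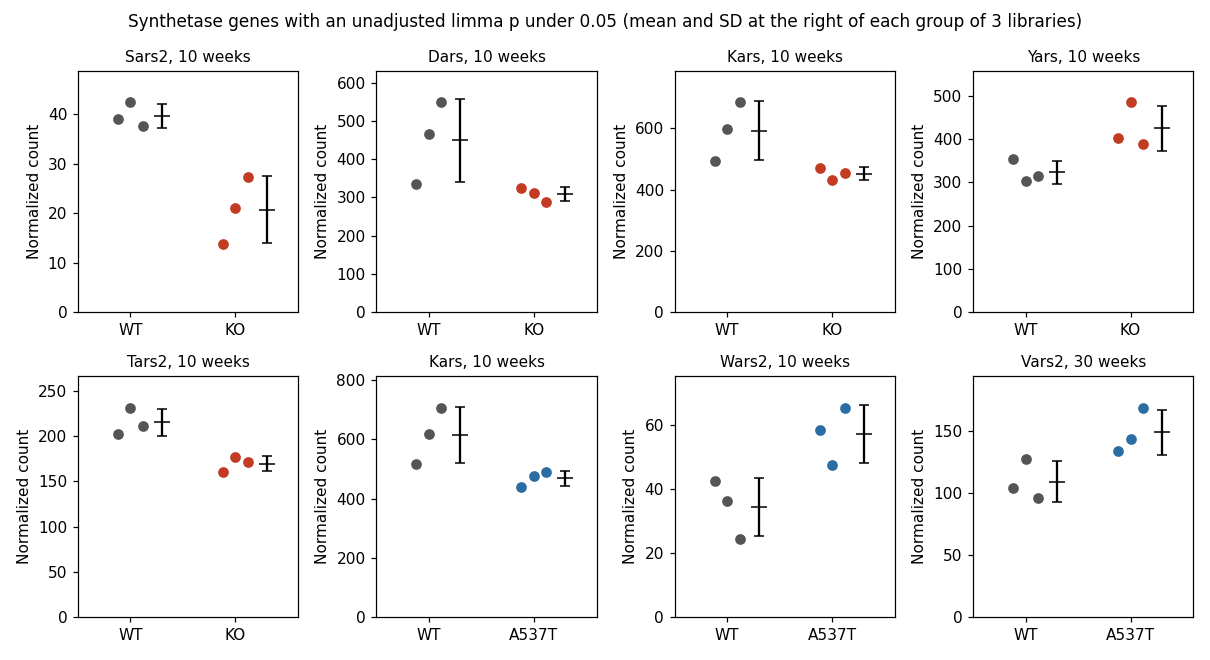
Normalised counts of the members with an unadjusted limma p under 0.05, 1 point per library and the mean ± SD of 3 libraries beside each group, with all axes from 0. Sars2, Dars, Kars and Tars2 are lower and Yars higher in KO at 10 weeks, Kars is lower and Wars2 higher in A537T at 10 weeks, and Vars2 is higher in A537T at 30 weeks, each without overlap of the groups.

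A single WT library, 10AF, decided how many members were called in KO at 10 weeks, and likewise how many of all genes (0% with it, 18.8% without it). Without 10AF limma called 4 of 36 members at an adjusted p under 0.05, a smaller share than that of all genes and so no result about the members. They were Dars at -0.71, Kars at -0.50, Gars at 0.44 and Sars at 0.41 on the log2 scale. Library 10AF was the WT library with the highest seminal vesicle share (4.64%) and the lowest muscle share. Its Gars count of 712 and Sars count of 942 lay inside or next to the KO ranges of 685 to 747 and 930 to 1015, while those of 11AF and 12AF were 532 and 522 for Gars and 759 and 698 for Sars. Without each other library in turn no member was called. At an unadjusted p under 0.05, 7 members were higher and 10 lower without 10AF, where 17.8% of all genes were higher and 19.3% lower. The count was 0 higher and 0 lower without 11AF (5.11% and 8.12% of all genes), 0 and 1 without 12AF (5.13% and 7.34%), 1 and 0 without 13AF (4.07% and 7.95%), 0 and 1 without 14AF (5.28% and 9.72%), and 2 and 1 without 15AF (3.27% and 6.42%).

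Wars, Qars and Gars varied within WT as much as between the groups. At 10 weeks Wars had normalised counts of 1858, 1370 and 707 in the WT libraries 10AF, 11AF and 12AF and of 1632, 1822 and 1868 in KO, and the log2 fold change of 0.54 ± 0.33 was accordingly uncertain (SE; limma adjusted p = 0.386). Qars had 1111, 837 and 679 in WT and 1082, 946 and 915 in KO, at a log2 fold change of 0.19 ± 0.19 (SE; limma adjusted p = 0.593). Gars stood at 0.30 ± 0.15 (SE; limma adjusted p = 0.317). Among A537T mice of 10 weeks Wars had 1935, 1401 and 725 in WT and 1290, 1202 and 1153 in the mutant, and Qars had 1186, 878 and 715 in WT and 981, 1048 and 950, both with overlap. In all, 5 cytosolic genes (Gars, Iars, Qars, Sars and Wars) and 4 mitochondrial genes (Lars2, Pars2, Vars2 and Wars2) stepped down from 10AF through 11AF to 12AF, and 6 and 4 genes stepped up, against 23.8% and 27.1% of all genes. Those that stepped up included Dars, Kars, Eprs and Lars of the multi-synthetase complex.

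The log2 fold changes of the 8 members of the multi-synthetase complex had a median of 0.05 in KO at 10 weeks, 4 higher and 4 lower, while the mRNAs of the complex's scaffold proteins stood lower. Aimp1 had 286 ± 63.2 normalised counts in WT and 197 ± 9.85 in KO (SD, n = 3; limma adjusted p = 0.204), Aimp2 had 169 ± 81.3 and 76.8 ± 31.1 (limma adjusted p = 0.218), and Eef1e1 had 61.6 to 66.3 in WT and 22.2 to 54.1 in KO (limma adjusted p = 0.254). The log2 fold changes were -0.52, -1.11 and -0.80, and no KO library overlapped a WT library for any of the 3, as for 14.3% of all genes in that direction. Over the WT libraries Aimp1 ran from 239 to 358 and Aimp2 from 118 to 263. The part of tissue content in the values of these 3 genes was not tested. The same 3 genes stood in A537T at 10 weeks at -0.40, -0.69 and -0.32 with adjusted p from 0.746, and in both lines at 30 weeks they lay between -0.07 and 0.42.

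By structural class, which divides synthetases into 2 unrelated folds, 12 of 19 class I genes and 4 of 17 class II genes were higher in KO at 10 weeks, with medians of 0.17 and -0.20, beside 49.4% of all genes higher. All 4 members that were lower at an unadjusted p under 0.05 (Sars2, Tars2, Dars and Kars) belong to class II (11.5% of all genes were lower) and Yars, which was higher, to class I (7.97% of all genes were higher). Eprs, the glutamyl and prolyl enzyme, was counted in class I only. The difference between the structural classes was not tested. The medians in A537T at 10 weeks were 0.10 and -0.05, while the KO mice of 30 weeks gave -0.02 and -0.05 and the A537T mice of that age -0.17 and -0.12.

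Among the 16 partners of tRNA charging, 6 had an unadjusted p under 0.05 in KO at 10 weeks, all lower, against 11.5% of all genes, and none passed the adjusted test by limma, DESeq2 or edgeR. Besides the 3 scaffold genes these were Tufm, the mitochondrial elongation factor that carries charged tRNAs to the ribosome (326 ± 32.5 in WT, 232 ± 10.5 in KO, log2 fold change -0.48, limma adjusted p = 0.183), Tarsl2, a second threonyl enzyme (308 ± 135 and 141 ± 31.7, log2 fold change -1.04, limma adjusted p = 0.218), and Dtd1, which removes D-amino acids from tRNAs (101 ± 21.0 and 68.4 ± 9.29, log2 fold change -0.55, limma adjusted p = 0.247). Trnt1, which adds the CCA end after ELAC2 has cut, had 164 ± 10.3 in WT and 144 ± 20.6 in KO (SD, n = 3; limma adjusted p = 0.496). The part of tissue content in the values of the partners was not tested.

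Many cytosolic synthetase genes are targets of ATF4, the transcription factor of the integrated stress response, which mitochondrial defects can activate. The members known as such numbered 12, and 14 further ATF4 targets from amino acid supply and stress signalling were set beside them. In KO at 10 weeks the median over the 12 synthetases was 0.20 on the log2 scale, with 9 higher and 3 lower, between -0.27 for Eprs and 0.54 for Wars. The 14 other targets had a median of 0.95, with 12 higher, and 10 had an unadjusted p under 0.05, all of them higher, against 7.97% of all genes. The highest was Slc7a11, the cystine transporter, with 18.8 ± 5.66 normalised counts in WT and 92.5 ± 25.2 in KO, a log2 fold change of 2.25 ± 0.33 (SE; limma adjusted p = 0.183, DESeq2 adjusted p = 3.1e-05, edgeR adjusted p = 0.206). It was the 1 gene of the 14 that DESeq2 called in KO at 10 weeks, while edgeR called 0. Psat1, of serine synthesis, was at 1.43 and Trib3, an ATF4 feedback inhibitor, at 1.21, whereas Asns was at 0.33 and Chac1 at -0.17. Psat1 ran from 65.3 to 296 normalised counts over the WT libraries and from 357 to 390 over those of KO. These groups also differed in tissue, with seminal vesicle genes at 0.000808 to 4.64% of reads in WT and 6.55 to 10.3% in KO. The part of tissue content in the values of the 14 targets was not tested. The synthetases with the largest values, Wars at 0.54 and Yars at 0.39, were below the median of the other targets. In the remaining comparisons the medians of the synthetases and of the other targets were -0.12 and 0.14 for A537T mice of 10 weeks, 0.02 and 0.36 for KO mice of 30 weeks, and -0.19 and 0.08 for A537T mice of 30 weeks. In the last of these DESeq2 called Phgdh, of serine synthesis, lower (-0.54 by limma; DESeq2 adjusted p = 0.0484, limma adjusted p = 0.272).

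**Figure D4:**
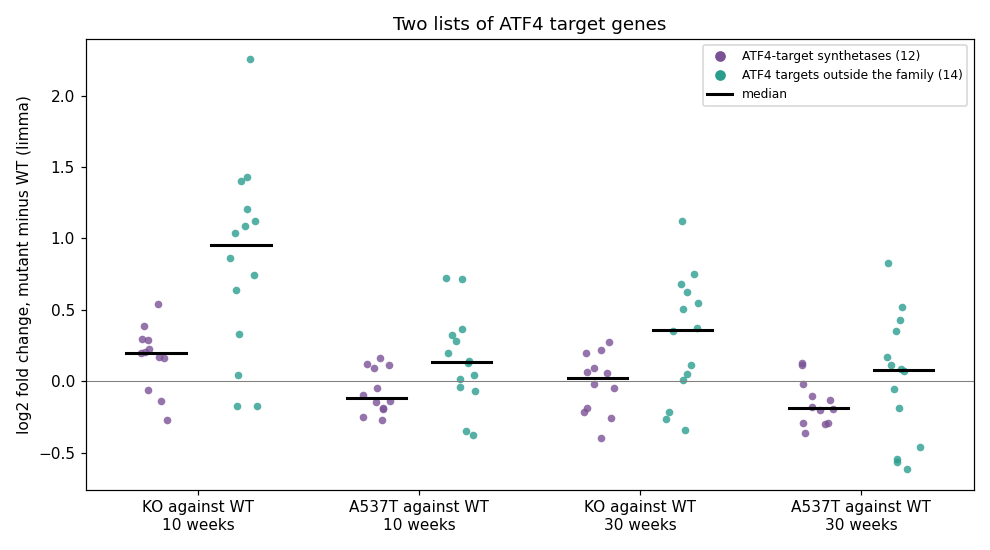
Log2 fold change (mutant minus WT, limma) of 12 synthetase genes and 14 other genes known as ATF4 targets in the 4 comparisons, 1 point per gene, with black lines at the medians. In KO at 10 weeks the medians are 0.20 and 0.95, and in the other comparisons the synthetase median lies between -0.19 and 0.02.

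ATF4 binds with C/EBP partners to an element whose core was searched as TGATGNAA on both strands of RefSeq promoters (250 bases before to 50 after the transcription start, GRCm38.p6). Promoters of 13 cytosolic and 14 mitochondrial genes were matched. The core was found in 5 of the 13 cytosolic promoters, in none of the 15 promoter windows of the mitochondrial genes and in 3.97% of all 32851 promoters. It was also found for 4 of the 12 other ATF4 targets matched (Asns, Chac1, Trib3 and Slc7a11). A stretch around the match is shown for 4 of the 5 members that held the core, each on the strand of its gene with the core, or its reverse complement, in capitals:
Gars, chr6:55037960-55037989, plus strand: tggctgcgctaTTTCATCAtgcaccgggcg
Iars, chr13:49682126-49682155, plus strand: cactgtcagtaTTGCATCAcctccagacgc
Tars, chr15:11399655-11399684, minus strand: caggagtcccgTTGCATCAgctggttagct
Yars, chr4:129189895-129189924, plus strand: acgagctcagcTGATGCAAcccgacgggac

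The cores shown lay from 30 bases before the start in Gars to 7 bases after it in Iars. The same letters, TTGCATCA, occurred in Iars and Tars, their reverse complement TGATGCAA in Yars, and TTTCATCA in Gars. A match describes the letters of the window and not binding. The 4 genes did not move as one in KO at 10 weeks, with log2 fold changes of 0.30 for Gars, 0.17 for Iars, -0.14 for Tars and 0.39 for Yars.

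Lars2 (chr9:123366927-123462666, plus strand, GRCm38) had the widest range of the family. Its level ran from 12.2 RPKM in library 12AF to 101 RPKM in library 10AF, both WT at 10 weeks, an 8.29-fold range against at most 4.61-fold for any other member. In WT at 10 weeks its normalised counts were 3155, 1416 and 492, and the KO libraries lay between these at 2027, 2447 and 2260. The log2 fold change of 0.78 ± 0.60 (SE; limma adjusted p = 0.474) depended on the WT libraries, being 0.08 without 12AF, 1.42 without 10AF and 0.72 to 0.85 without any 1 of the others. In A537T at 10 weeks the counts were 1698, 2031 and 1246, inside the WT range of 508 to 3312 in that table. At 30 weeks they were 1144, 2370 and 2038 in WT, 2173, 805 and 1217 in KO, and 1865, 1601 and 1294 in A537T, with overlap in both comparisons. Lars2 supplied 15.8 to 59.6% of the summed mitochondrial level, and without it that sum lay between 61.9 and 89.4 RPKM in all libraries.

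The gene most like Lars2 over the 18 libraries, of 11270 compared, was Gm42418, a gene model known to overlap a ribosomal RNA locus (Pearson r of log2 levels 0.96, given as a description since the pair was found by search and all points share their library). Gm42418 ran from 360 CPM (reads scaled to library depth) in 12AF to 5499 in 10AF, the same libraries that were lowest and highest for Lars2. Its next highest library of WT at 10 weeks, 11AF, held 1317, and KO at 10 weeks held 3965, 4460 and 5112. The annotated Lars2 transcripts shared no stretch of 25 bases with Gm42418 or with the mitochondrial ribosomal RNAs mt-Rnr1 and mt-Rnr2 on either strand. Nuclear ribosomal RNAs themselves were not compared, nor were inexact matches, so this search cannot show where the Lars2 reads came from. The share of ribosomal RNA in these libraries was not measured otherwise, and its part in the Lars2 values was not tested.

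**Figure D5:**
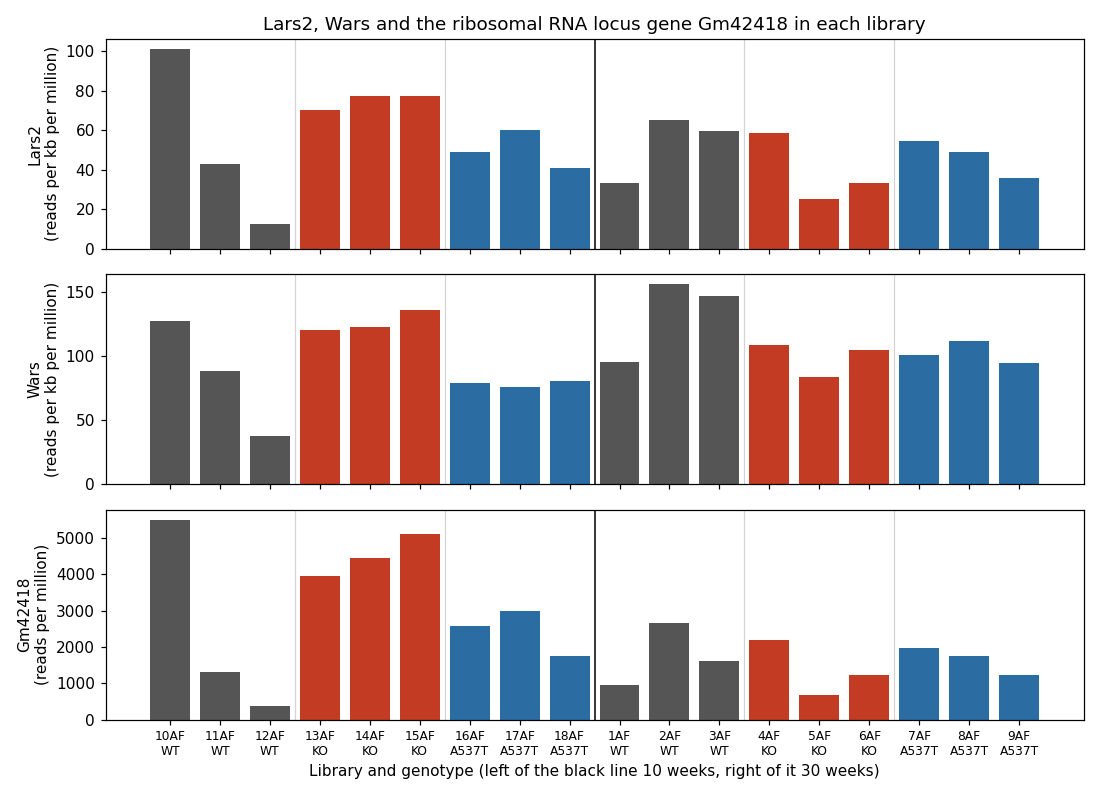
Level of Lars2 and Wars (RPKM) and of the ribosomal RNA locus gene Gm42418 (CPM) in each of the 18 libraries, as bars from 0 coloured by genotype. All 3 genes are lowest in library 12AF, and Lars2 and Gm42418 are highest in library 10AF.

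In A537T at 10 weeks no member passed the test (limma adjusted p 0.746 to 0.999 against 0% of 15131 genes called), and DESeq2 and edgeR called 0 members (0.595% and 0% of all genes). At an unadjusted p under 0.05 limma counted 2 members (6.43% of all genes), 1 higher (2.76%) and 1 lower (3.67%), DESeq2 2 members (7.45%) and edgeR 2 members (7.27%). The groups did not overlap for 4 members (11.9% of all genes), 1 higher (5.58%) and 3 lower (6.34%). The cytosolic median was -0.07 with 8 of 20 genes higher, and the mitochondrial median was 0.11 with 11 of 16 higher. The cytosolic minus the mitochondrial median of the A537T libraries, at -0.08, -0.13 and -0.07, lay inside the WT range. The 20 muscle genes took 0.673 to 2.00% of reads in A537T against 1.88 to 6.53% in WT, with 20 of 20 lower at a median log2 fold change of -1.68, and 7 of 7 adipocyte genes were higher (0.0811 to 0.0844% of reads against 0.0470 to 0.0719%). Their part in the members' differences was not tested.

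Wars2, the mitochondrial tryptophanyl enzyme (chr3:99141068-99239186, plus strand), had 42.5, 36.3 and 24.5 normalised counts in WT and 58.5, 47.6 and 65.6 in A537T at 10 weeks. The groups did not overlap and the log2 fold change was 0.74 ± 0.28 (SE; limma adjusted p = 0.746), resting on 23 to 65 reads per library. In KO of the same age it stood at 0.55 ± 0.31. Kars had 518, 617 and 707 in WT and 439, 477 and 489 in A537T, and its log2 fold change of -0.38 ± 0.15 equalled that in KO to 2 decimals, with the WT libraries shared between both comparisons (limma adjusted p = 0.746). Sars2 had 39.4, 42.4 and 37.3 in WT and 22.3, 33.3 and 32.3 in A537T, also without overlap, at -0.44 ± 0.26. Sars had 1006, 796 and 735 in WT and 608, 752 and 737 in A537T, and Iars2, the mitochondrial isoleucyl enzyme, had 392, 412 and 486 and 353, 395 and 366, both with overlap and adjusted p of 0.765 and 0.767 by limma. Cars2, the mitochondrial cysteinyl enzyme, had 150.2, 164 and 141 in WT and 177, 136 and 185 in A537T, and Tars2 had 209, 235 and 216 and 250.03, 207 and 223, again with overlap. In KO of that age Cars2 had 164, 169.8 and 166 against 146, 162 and 139 in WT, without overlap (0.17 ± 0.13, SE). Gars had 740, 543 and 534 in WT and 635, 564 and 487 in A537T, with overlap.

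By 30 weeks no member separated KO from WT. The groups overlapped for all 36 members, while 16.3% of all genes did not overlap (7.92% higher and 8.41% lower). No member had an unadjusted p under 0.05 by limma (11% of 14729 genes), DESeq2 (11.1%) or edgeR (11.9%), and adjusted p ran from 0.483 to 0.977 (0% of genes called by limma, 1.93% by DESeq2 and 0% by edgeR). The cytosolic median log2 fold change was -0.03 and the mitochondrial median -0.07. Vars2, the mitochondrial valyl enzyme (chr17:35655634-35667592, minus strand), came first with 104, 127 and 96.0 normalised counts in WT and 150, 162 and 118 in KO (0.39 ± 0.18, SE; limma adjusted p = 0.483). Hars2, the mitochondrial histidyl enzyme, had 135, 129 and 73.3 in WT and 130, 156 and 149 in KO (0.41 ± 0.25), and Aars, the alanyl enzyme, had 599, 848 and 813 in WT and 674, 562 and 637 in KO (-0.26 ± 0.16). In Hars2 library 3AF lay below all the others, and in Aars the WT library 1AF lay inside the KO range. Wars stood at -0.39 ± 0.24 and Mars2 at -0.34 ± 0.22, both with overlap. Mars2, the mitochondrial methionyl enzyme, had 329, 282 and 283 in WT, and in KO 182 and 216 in the libraries with seminal vesicle RNA and 328 in library 5AF, which lacked it.

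Other members were compared over the same division of the libraries by seminal vesicle share. Tars2 had normalised counts of 185 and 212 in the KO libraries 4AF and 6AF and 313 in 5AF, with 229, 232 and 241 in WT between them. Sars had 1102 and 947 in 4AF and 6AF and 637 in 5AF, with 704, 782 and 797 in WT. In KO, 4AF and 6AF both lay above the other 4 libraries for 2 members (Cars and Sars, against 17.8% of all genes) and below them for 4 (Dars, Mars2, Rars2 and Tars2, against 18% of all genes). In A537T, 7AF and 9AF both lay above for 3 members (Mars1, Sars and Yars2, against 18.6% of all genes) and below for 6 (Qars, Cars2, Mars2, Nars2, Sars2 and Tars2, against 19.7% of all genes). Tars2 had 213 and 194 in those 2 libraries and 303 in 8AF, which held no seminal vesicle reads above the WT level. All 4 counts lie below the share of all genes and are no result about the members. The 4 libraries were all mutant and 3 of the other 4 in each table were WT, so that seminal vesicle share and genotype cannot be told apart here, and no test was made. Cars2 overlapped WT in both lines, with 187, 170.5 and 179 in WT and 165, 178 and 179 in KO, and 190.1, 173 and 182 in WT and 144, 191 and 158 in A537T. Qars also overlapped, with 1080, 1053 and 968 in WT and 1273, 987 and 994.5 in KO, and 1103, 1075 and 991 in WT and 925, 1104 and 934 in A537T.

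In A537T at 30 weeks most members were slightly lower. Among the cytosolic genes 4 of 20 were higher, with a median log2 fold change of -0.16, and among the mitochondrial genes 5 of 16, with a median of -0.11, while 49.3% of all 14789 genes were higher with a median of -0.01. No member passed the test (limma adjusted p 0.332 to 0.986 against 0% of genes called). DESeq2 called 0 members at an adjusted p under 0.05 (3.19% of all genes) and edgeR 0 (0%). At an unadjusted p under 0.05 there was 1 member by limma (13.6% of all genes), which was higher (7.35%) while none was lower (6.28%), 0 by DESeq2 (13.9%) and 1 by edgeR (14.7%). It was Vars2, with 104, 127 and 96.0 normalised counts in WT and 134, 144 and 169 in A537T, without overlap and at 0.44 ± 0.17 on the log2 scale (SE; limma adjusted p = 0.332). Of the 2 members without overlap (18.6% of all genes), Vars2 was the 1 that was higher (9.18% of all genes), and Dars the 1 that was lower (9.4% of all genes), with 502, 481 and 452 in WT and 446, 419 and 366 in A537T (-0.22 ± 0.11, SE).

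WT library 1AF lay nearer to A537T than the other WT libraries did for several members. Aars had 606, 857 and 823 normalised counts in WT and 645, 581 and 610 in A537T, so that 1AF alone lay inside the mutant range (-0.30 ± 0.15, SE; limma adjusted p = 0.416). Nars2, the mitochondrial asparaginyl enzyme, had 114, 179 and 149 in WT and 114, 115 and 110 in A537T, again with 1AF at the mutant level. Mars2 had 329, 281 and 283 in WT and 241, 285 and 203 in A537T, and here 1AF was the highest library. Without 1AF limma counted 9 of 36 members lower at an unadjusted p under 0.05 (5.48% of all genes), none of them past the adjusted test, and the cytosolic median was -0.26, whereas it was -0.05 without 2AF, and with each of the other 5 libraries left out at most 1 was lower (3.18 to 13.2% of all genes).

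Interferon response genes, which Wars is known to join, were mostly higher in A537T at 30 weeks. Of the 17 tested, 15 were higher and 2 lower with a median log2 fold change of 0.69, and 11 had an unadjusted p under 0.05, all higher (7.35% of all genes). DESeq2 called 4 of them at an adjusted p under 0.05, and limma and edgeR called 0. Wars had 1532, 2631 and 2346 normalised counts in WT and 1608, 1723 and 1615 in A537T, at -0.36 ± 0.20, which did not pass the test (SE; limma adjusted p = 0.447), with 8 plasma and B cell genes at 0.00721 to 0.0116% of reads in WT and 0.0233 to 0.104% in A537T. In KO at 30 weeks Wars had 1549, 2662 and 2366 in WT and 1887, 1260 and 1809 in KO. Gars had 457, 727 and 690 in WT and 718, 418 and 693 in KO of that age, and 563, 536.9 and 611 in A537T. Kars had 590, 506 and 556 in WT and 513, 576 and 506 in KO, and 505, 571 and 446 in A537T. Both enzymes, which serve cytosol and mitochondria alike, overlapped WT in either line.

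The partners showed 2 genes at an unadjusted p under 0.05 in KO at 30 weeks, 1 higher (5.56% of all genes) and 1 lower (5.41% of all genes). Xpot, the nuclear export receptor of tRNAs, had 442 ± 73.8 normalised counts in WT and 591 ± 79.7 in KO (SD, n = 3; log2 fold change 0.42, limma adjusted p = 0.429), and Mtfmt, which formylates the mitochondrial initiator tRNA, had 89.1 ± 13.7 and 59.8 ± 8.97 (-0.57, adjusted p = 0.416). In A537T at 30 weeks it was 1, Gatb, a subunit of the enzyme that makes mitochondrial glutaminyl-tRNA in the absence of a glutaminyl synthetase, with 196 ± 61.4 in WT and 96.2 ± 40.4 in A537T (-1.05, limma adjusted p = 0.300). In A537T at 10 weeks there was none. Trnt1 had 194 to 248 normalised counts in WT and 171 to 182 in KO at 30 weeks (-0.27, limma adjusted p = 0.509), and 188 to 240 in WT and 146 to 178 in A537T (-0.33, limma adjusted p = 0.391), in neither case with overlap. The groups did not overlap in that direction for 8.41% of all genes in KO and 9.4% in A537T, and both comparisons used the same WT libraries.

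Whether a member's change differed between the ages was examined within each line by permuting genotype within each age. The permutation was exact and 2-sided, with 400 arrangements and a smallest p possible of 0.005. It takes genotype to have no effect at either age, so a small p is not specific to a difference between the ages. After adjustment over 14295 genes in KO and 14292 in A537T no member passed, with adjusted p of at least 0.543 in KO and 0.454 in A537T. In KO 0 of 36 members had an unadjusted p under 0.05 (8.60% of all genes), and in A537T 1 did (9.91% of all genes). It was Ears2, the mitochondrial glutamyl enzyme, at 0.22 at 10 weeks and -0.18 at 30 weeks on the log2 scale (exact permutation p = 0.045). Yars went from 0.39 to -0.22 and Wars from 0.54 to -0.39 in KO (exact permutation p = 0.065 and 0.075, adjusted p = 0.562 and 0.575).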

How the data were processed

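Total RNA was sequenced on an Illumina NovaSeq, with 3 replicates per group per the labels. They were taken here as separate mice, so p-values measure the spread between these samples. The authors used Trim Galore 0.4.1 with cutadapt 1.18 for trimming, STAR 2.7.3a for alignment to GRCm38.p6, then Salmon and tximport. What was deposited is a signal per gene, the authors' estimated count over the library's size factor (DESeq2 1.26), in 4 tables of 6 libraries, each scaled by itself. The authors' own fold changes and s-values were not used. Only the mean counts listed beside them were read, to check which comparison each table held. All 1989 genes compared at 10 weeks and all 1013 at 30 weeks matched within 1 in 1000. Columns are headed by library labels alone. Columns found in both tables of an age were taken as WT and the others as the mutant line that the table is named for, without replicate numbers.

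Whole counts were recovered from the normalised counts (at least 99.98% of values within 0.01 of a whole number). They are estimates made table by table and not reads of the library as such: a WT library's counts differed between its 2 tables in 53.6 to 64.1% of the genes with a count and by up to 23.1% in a member, for a reason not given in the sources used here. Each comparison used its own table, and levels of WT (RPKM, CPM and shares of reads) came from the KO tables, so that levels were estimated separately across tables. In 4 of the columns a count was worth 0.990 to 1.01, the nearest others being 0.978 and 1.02, and the recovery rests there on the same steps without an automatic check. The test was limma on log2(normalised count + 1) for genes averaging at least 10, run with version 3.58.1 in R 4.3.3 (eBayes with a mean trend) and Benjamini-Hochberg adjustment over all genes and a threshold of 0.05. Fold changes of low genes are understated by the added count. The method was checked on simulated data in which all genes had the same dispersion and the libraries did not differ in tissue. The check therefore does not cover the tissue differences described above. DESeq2 1.42.0 and edgeR 4.0.16 were run on the recovered counts. RPKM used the GENCODE M21 transcript with the longest coding sequence, an annotation older than that of the authors. Normalised counts or ranges over libraries were given for the 5 members with the smallest limma p in each comparison, the 3 most abundant of each class, Gars, Kars and Wars. Partners were named at an unadjusted p under 0.05. Trnt1, Gm42418 and the division by seminal vesicle share were picked with their values in view. The members and lists were chosen with earlier results of these data known. A partner gene and a promoter stretch are not reported here.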

Additional observations from a re-analysis of the deposited data

How the results depend on the processing

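The number of members called was 0 in every comparison under each alternative run (added count of 8, minimum mean of 1 or 100, same total with or without muscle and seminal vesicle genes, quantile normalisation, no mean trend, a tissue score as covariate, DESeq2, edgeR and leaving out each library), except KO at 10 weeks, where leaving out libraries gave 0 to 4. In KO at 10 weeks the cytosolic median log2 fold change was 0.38 at the same total, 0.42 at the same total without muscle and seminal vesicle genes, 0.25 after quantile normalisation, 0.041 with the muscle score as covariate and 0.035 to 0.13 with libraries left out. The mitochondrial median was 0.019, 0.067, -0.18, -0.30 and -0.33 to -0.14. In A537T at 10 weeks the cytosolic median was 0.070 at the same total and 0.031 with the score, and the mitochondrial median 0.25 at the same total and -0.00087 to 0.11 with libraries left out. With the seminal vesicle score the mitochondrial median in KO at 30 weeks was 0.055, and without muscle and seminal vesicle genes in the total that in A537T was -0.0076. A score that follows genotype, as the muscle score does in KO at 10 weeks, cannot separate tissue from genotype. The causes were not tested.

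Several small differences reversed. In A537T at 10 weeks Gars was 0.041 at the same total and -0.19 to 0.054 with libraries left out, Lars2 was -0.70 with the score, -0.088 by DESeq2, -0.087 by edgeR and -0.44 to 0.92 with libraries left out, and Wars was 0.093 and 0.027 at the 2 totals, 0.0044 after quantile normalisation and -0.44 to 0.27 with libraries left out. In KO at 30 weeks Gars was 0.022 without muscle and seminal vesicle genes, 0.00073 after quantile normalisation and -0.26 to 0.21 with libraries left out, Kars was 0.017, 0.045 with the score and -0.11 to 0.0010 with libraries left out, and Mars2 was 0.091 with the score. In A537T at 30 weeks Gars was 0.0057 without those genes and -0.31 to 0.023 with libraries left out, Kars was 0.035 with the score and Lars2 was -0.49 to 0.036 with libraries left out. No paired analysis was possible because the columns carry no replicate number. With 3 libraries a group, an exact test of a single value cannot go below 0.1, and low counts limit Sars2, Wars2 and Pars2.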
